A study of Mus musculus with 4 samples.

Results

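The 6 mature miRNAs described here are made from hairpins that lie inside the mouse Hox gene clusters: mmu-miR-10a, mmu-miR-10b, mmu-miR-196a, mmu-miR-196b, mmu-miR-615-3p and mmu-miR-615-5p, written below without the species prefix. They were taken by name from the array design, all 6 were present, and they account for 6 of 650 miRNA names and 18 of 1857 probes. The samples were 4 cultures of mouse embryonic fibroblasts (MEFs) of the C57BL/6J strain, grown untreated in serum-containing medium, with total RNA hybridised to 1 single-colour Agilent miRNA array each. Lats2 knockout (KO, genotype Lats2-/-) MEFs of clone #112-C were taken at population doubling levels (PDL) 70 and 96, and wild-type (WT, genotype Lats2+/+) MEFs of clone #112-K at PDL 68 and 90. LATS2 is a kinase of the Hippo pathway, and the study asked how its loss alters Polycomb repressive complex 2 (PRC2) and gene expression. Each genotype was represented by a single clone, so that genotype and clone cannot be told apart, and the 2 arrays of a genotype measure the spread between passages of that clone. The embryo's age was not given in the sources used here. The array holds no probe for the Lats2 transcript, so the genotype labels could not be checked on these data.

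Hox genes encode transcription factors that set position along the body axis, and they stand in 4 clusters named Hoxa, Hoxb, Hoxc and Hoxd. Several miRNA hairpins lie between or within these genes, are often transcribed together with them, and repress certain Hox mRNAs. A miRNA recognises its targets mainly through its seed, bases 2 to 8 from the 5′ end. Silent Hox clusters are well known to carry H3K27me3, the histone mark that PRC2 deposits. The chromatin of these MEFs was not analysed here.

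The mature sequences are shown because the members form pairs that differ by a single base, and because 1 of them is made from hairpins in separate clusters. They are RefSeq sequences (GRCm38.p6), written 5′ to 3′ with the seed in capitals.
miR-10a: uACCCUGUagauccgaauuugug
miR-10b: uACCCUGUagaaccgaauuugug
miR-196a: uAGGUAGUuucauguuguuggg
miR-196b: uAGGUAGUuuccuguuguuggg
miR-615-3p: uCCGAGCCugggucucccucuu
miR-615-5p: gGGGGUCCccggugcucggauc

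miR-10a and miR-10b share their seed and differ by U12A over 23 bases, with the base of miR-10a first and positions counted from the 5′ end. miR-196a and miR-196b share theirs and differ by A12C over 22 bases, with the base of miR-196a first. The strands of the miR-615 hairpin share no seed with each other or with the other members. Among 378 unstarred mouse names on the array that could be matched to a RefSeq sequence, of 496, no further name carried any of these seeds.

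The probe positions in the files (mm9) place the members in all 4 Hox clusters. Both probes of miR-10a map to chromosome 11, the longer one at chr11:96178503-96178522, and the RefSeq gene table places the hairpin within Hoxb3. The longer probe of miR-10b maps to chr2:74564134-74564153, where the hairpin overlaps the annotated Hoxd3 and Hoxd4 genes. The longer probe of miR-196b maps to the minus strand at chr6:52180098-52180116, between Hoxa9 and Hoxa10. The longest probe of miR-615-3p maps to chr15:102845406-102845421, and its hairpin lies within Hoxc5. Every probe of miR-196a has 2 positions. For the longest probe these are chr11:96126501-96126522, between Hoxb13 and Hoxb9, and chr15:102803796-102803817, between Hoxc10 and Hoxc9. A miR-196a signal can therefore not be assigned to Hoxb or Hoxc.

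miR-10a and miR-196a were measured above background in KO MEFs and in no WT culture, and the other 4 members were above background on no array. All signals below are processed signals of the scanner software, scaled between arrays to a common 75th percentile and given in signal units. A probe counted as above background where more than 0.5 of its spots carried the software's flag, and of the probes to 1 miRNA the one with the highest log2 signal, averaged over the 4 arrays, stood for it. The dimmest probes above background had 15.2 and 12.5 units on the KO arrays and 14.8 and 15.5 units on the WT arrays. These signals are the array limits used below, and they are no sharp threshold. Names above background on no array, members left out, reached 16.1 and 15.0 units on the KO arrays, against 14.1 and 17.4 units on the WT arrays.

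miR-10a, a miRNA of the Hoxb cluster, had signals of 84.7 units at PDL 70 and 73.7 units at PDL 96 in KO MEFs, against -1.94 units at PDL 68 and 5.27 units at PDL 90 in WT MEFs. Both KO cultures were far above the array limits and both WT cultures below them, so the groups did not overlap. In RNA of whole cultures, fewer cells with a miRNA and less of it per cell cannot be told apart. The level in KO MEFs was at least 5.21-fold higher than in WT MEFs, computed from the KO mean against the WT array limits. The bound was 3.01-fold under quantile normalization and 1.72-fold with normexp background correction, an offset of 50 units being added in the second. The fitted difference, with signals under 1 unit set to 1, was 5.11 ± 0.94 on the log2 scale (SE, n = 2 arrays each, limma, adjusted p = 0.0229). This fitted value rests on the floor and is no estimate of the fold. The call was lost when all 650 names were tested with no filter on dim miRNAs (adjusted p = 0.191), without the KO array at PDL 70 (adjusted p = 0.194), and without the KO array at PDL 96 (adjusted p = 0.186).

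miR-196a, which represses Hox mRNAs such as Hoxb8, had signals of 59.0 units at PDL 70 and 62.2 units at PDL 96 in KO MEFs, against -0.0650 units at PDL 68 and 3.56 units at PDL 90 in WT MEFs. Here too both KO cultures stood above the limits and both WT cultures below them. The level was at least 3.99-fold higher in KO MEFs, with a fitted difference of 5.01 ± 0.72 on the log2 scale (SE, n = 2 arrays each, limma, adjusted p = 0.0129). The call was lost with no filter on dim miRNAs (adjusted p = 0.130), and without the KO array at PDL 70 (adjusted p = 0.149) or at PDL 96 (adjusted p = 0.148). The size depended on the probe chosen, and WT signals under the limits entered that choice. In WT MEFs at PDL 90 the representing probe had 3.56 units and the probe of 22 bases 1.47 units. The probe of 22 bases was the brighter of these in KO MEFs. With the probe of the highest mean linear signal, an alternative added after the values had been seen, the bound was 5.69-fold. The fitted log2 difference there was 6.15 (limma, adjusted p = 0.000411). The same probe was chosen when the WT array at PDL 90 was left out, with a bound of 6.12-fold. That probe, of 22 bases, was also chosen with normexp correction, where the bound was 1.83-fold, and with quantile normalization, where it was 3.29-fold.

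**Figure D1:**
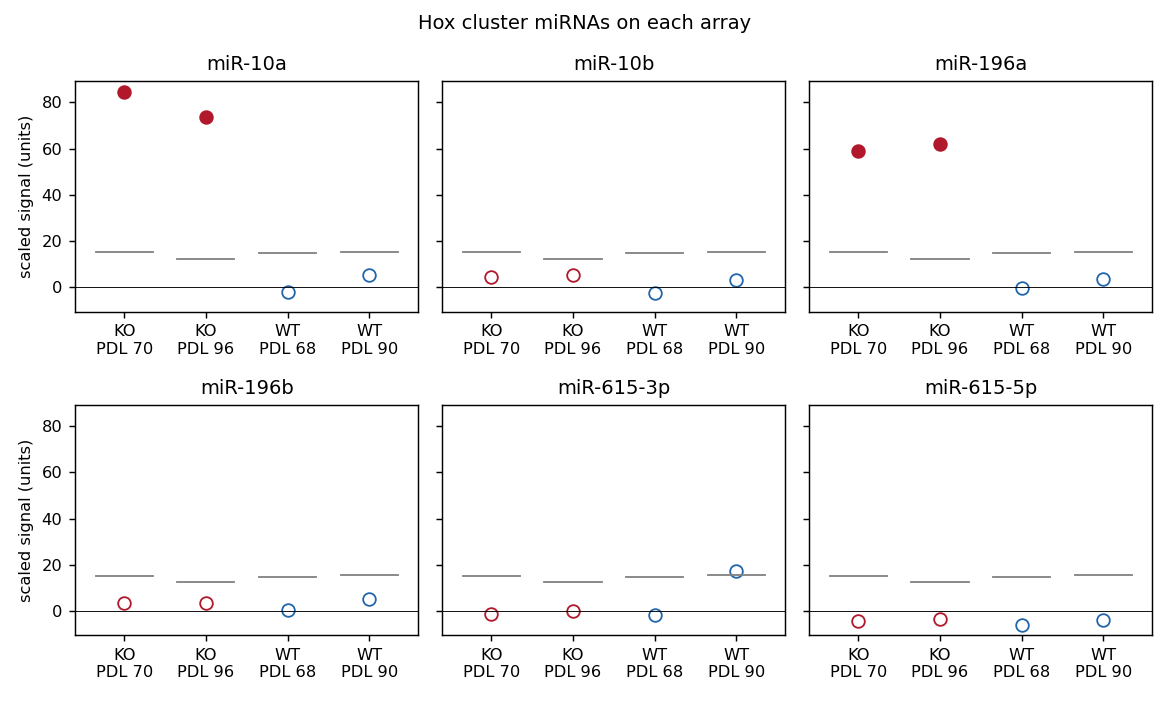
Scaled signal (units, linear axis) of the representing probe of each Hox cluster miRNA on each array, KO in red and WT in blue. Filled points were above background, open points were not, and the grey lines give the array limits of 15.2, 12.5, 14.8 and 15.5 units from left to right. Filled points occur only for miR-10a and miR-196a on the KO arrays.

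These counts stand against a wide difference between the clones. Of 159 tested miRNAs, meaning those above background on each array of a genotype, 69 were called higher in KO MEFs (43.4%) and 23 lower (14.5%; limma, adjusted p under 0.05). Both tested members were among the higher ones, and both had passed the filter through the KO arrays alone. The median difference of tested miRNAs was 0.31 on the log2 scale. The split of calls depended on the scaling, with 51 higher and 42 lower under quantile normalization, 38 and 36 with arrays scaled to their median, and 92 and 15 with no scaling, while the median difference was 0.12, -0.09 and 0.52 in these settings. Both members were called higher under each of them, where the same filter had again admitted them through the KO arrays alone. These repeated calls are therefore no independent support. Of all 650 names, 35 (5.38%) had signal above background in both KO cultures and in neither WT culture, and 2 of the 6 members did. With no filter, 50 of 650 names were called higher (7.69%), and none of the 6 members was (limma, with unadjusted p of 0.0345 for miR-10a and 0.0200 for miR-196a).

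**Figure D2:**
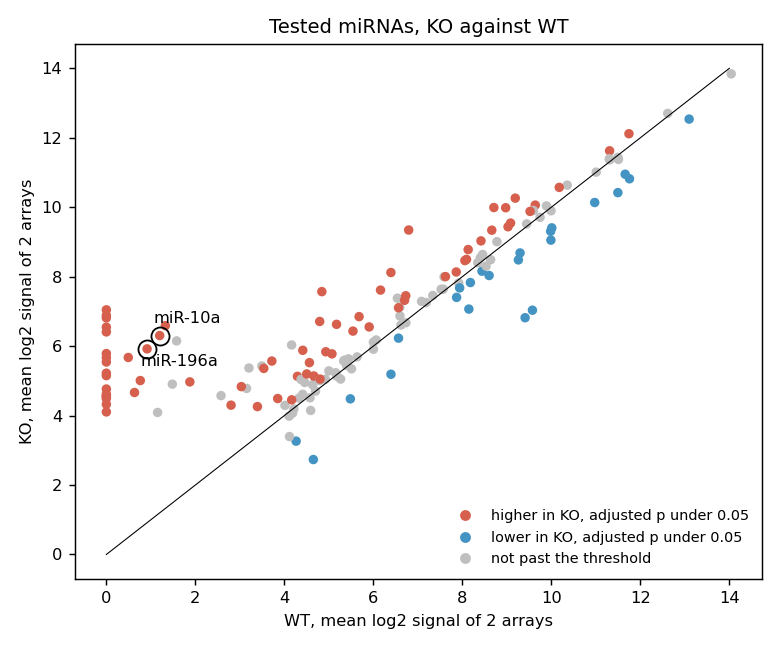
Mean log2 signal of the 2 KO arrays (vertical axis) against that of the 2 WT arrays (horizontal axis) for the 159 tested miRNAs, with miR-10a and miR-196a circled and the line of equal signal drawn. Signals under 1 unit were set to 1, so points at 0 on the horizontal axis have no measured WT level. Colours mark the 69 miRNAs called higher in KO, the 23 called lower and the rest.

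The probes bind the 3′ part of a miRNA and differ in how far they reach towards its 5′ end. They are shown because the base that separates the paralogues lies within every one of them. They are DNA, 5′ to 3′, as the array files give them, with the base that faces position 12 of the miRNA in capitals.
miR-10a, shorter probe: cacaaattcggAtctacagg
miR-10a, longer probe: cacaaattcggAtctacaggg
miR-10b, longer probe: cacaaattcggTtctacaggg
miR-196a, shortest probe: cccaacaacaTgaaactac
miR-196a, representing probe: cccaacaacaTgaaactacc
miR-196a, longest probe: cccaacaacaTgaaactaccta
miR-196b, longer probe: cccaacaacaGgaaactacc

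Every probe of the bright members separated the genotypes. The shorter probe of miR-10a (20 bases) had 34.5 and 31.2 units in KO MEFs, against -2.35 and 1.89 units in WT MEFs. Of the 20 spots of miR-10a, all 20 were flagged well above background on each KO array, and none of the 18 and 20 usable spots was on the WT arrays. By probe, the lower bound of the fold was 2.16 and 5.21.

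The 4 probes of miR-196a, with 5 spots each, had between 24.1 and 89.4 units at PDL 70 and between 25.4 and 85.9 units at PDL 96 in KO MEFs, against -1.26 to 0.983 units at PDL 68 and -1.02 to 3.56 units at PDL 90 in WT MEFs. The probe of 20 bases that stands for miR-196a is neither the dimmest nor the brightest of them in KO MEFs. The probe of 22 bases gave 86.8 and 85.9 units in KO MEFs, against 0.217 and 1.47 units in WT MEFs. All usable spots, 19 and 20, were flagged on the KO arrays and none of 20 on either WT array. The lower bound ranged from 1.63-fold to 5.69-fold over the 4 probes, all in the same direction. Probes of 1 miRNA share its target and spots share an array, so neither adds a replicate.

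**Figure D3:**
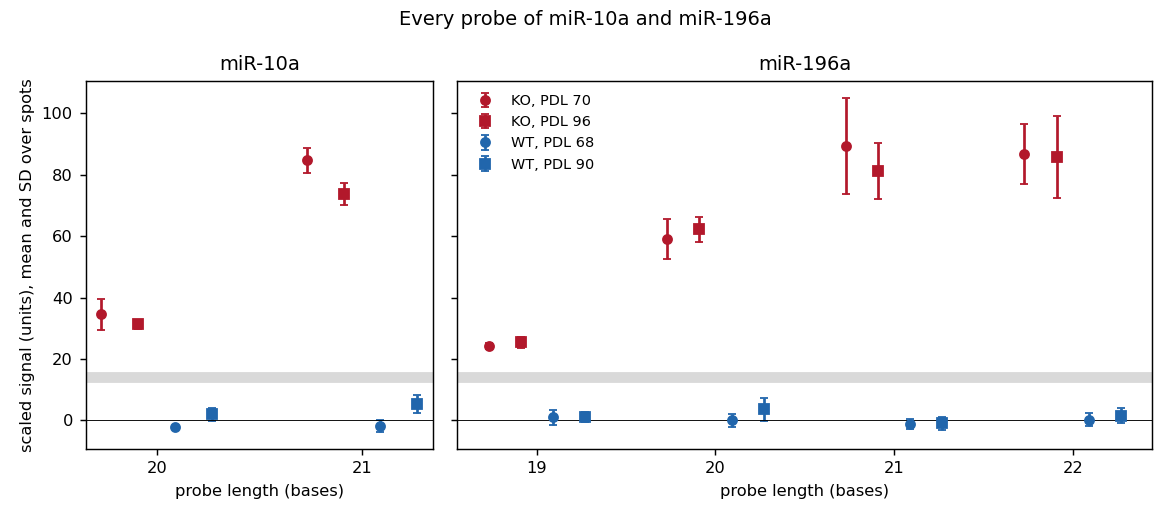
Scaled signal (units, linear axis; mean and SD over the spots of a probe) for the 2 probes of miR-10a and the 4 probes of miR-196a by probe length, with KO arrays in red and WT arrays in blue. The grey band spans the array limits, 12.5 to 15.5 units. Every KO point lies above the band and every WT point below it.

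The signals of the bright members at the 2 passages of the KO clone lay close together. Over its 2 probes, the ratio of PDL 96 to PDL 70 was 0.871 and 0.905 for miR-10a, and over the 4 probes of miR-196a it ranged from 0.909 to 1.05. In the fit of higher against lower PDL with genotype in the model, none of the 159 tested miRNAs passed (limma, 0%), and 8 had an unadjusted p under 0.05. For miR-10a and miR-196a that fit says nothing about passage, since their WT signals lay below the limits at both PDLs.

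The paralogues of the bright members were not above background in either genotype. miR-10b, in the Hoxd cluster, had signals of 4.55 and 5.32 units in KO MEFs, against -2.20 and 3.37 units in WT MEFs. miR-196b, in the Hoxa cluster, had 3.41 and 3.61 units in KO MEFs, against 0.430 and 5.19 units in WT MEFs. The other probe of miR-10b had -1.44 and -1.22 units in KO MEFs, against -2.92 and 0.0530 units in WT MEFs. All of these are under the array limits, and the groups overlapped for miR-196b and for this second probe of miR-10b. For comparison, the 5th to 95th percentiles of the 470 other names above background on no array were -5.80 to 8.94 and -5.98 to 8.32 units on the KO arrays, against -6.29 to 5.85 and -7.98 to 11.2 units on the WT arrays. Each of these values of miR-10b and miR-196b fell within that range of its own array. Their absence from the calls says only that they were not detectable at this signal over background.

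With 1 mismatch, miR-10b is the mature mouse miRNA nearest to both miR-10a probes, among 1673 other RefSeq sequences, and miR-196b is the nearest to all 4 miR-196a probes. Aligned without gaps, the next nearest to the miR-10a probes was miR-100, with 2 mismatches to the shorter and 3 to the longer probe, while the probes of miR-196a had at least 7 mismatches to every sequence but that of miR-196b. miR-100 was above background on all 4 arrays. Binding of miR-100 to the miR-10a probes, or of a paralogue with 1 mismatch to the probes of either bright member, was not tested.

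The miR-615 hairpin lies within Hoxc5. miR-615-5p was at or below background throughout, with its 4 probes between -5.86 and -3.62 units on the KO arrays, against -5.97 to -1.27 units on the WT arrays. miR-615-3p had signals of -1.44 and -0.140 units in KO MEFs, against -1.70 units at PDL 68 and 17.2 units at PDL 90 in WT MEFs. The high value came from a single WT culture, and the other WT culture was level with the KO cultures. On that array the 4 probes had 6.16, 6.91, 11.9 and 17.2 units in order of length. Of its 20 spots 2 were flagged well above background, both among the 5 spots of the longest probe, which therefore did not pass. The scanner software's flag per miRNA did mark miR-615-3p as detected there, and on no other array. Of the 470 other names above background on no array, 2 (0.426%) were as bright or brighter on that array. The median of these names was -2.17 and -2.05 units on the KO arrays, against -3.05 units at PDL 68 and -0.391 units at PDL 90 in WT MEFs. The median was thus highest on the WT array at PDL 90. The 5th to 95th percentiles were also widest there, from -7.98 to 11.2 units, with the lowest 5th percentile. The part of background in the miR-615-3p signal was not tested.

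**Figure D4:**
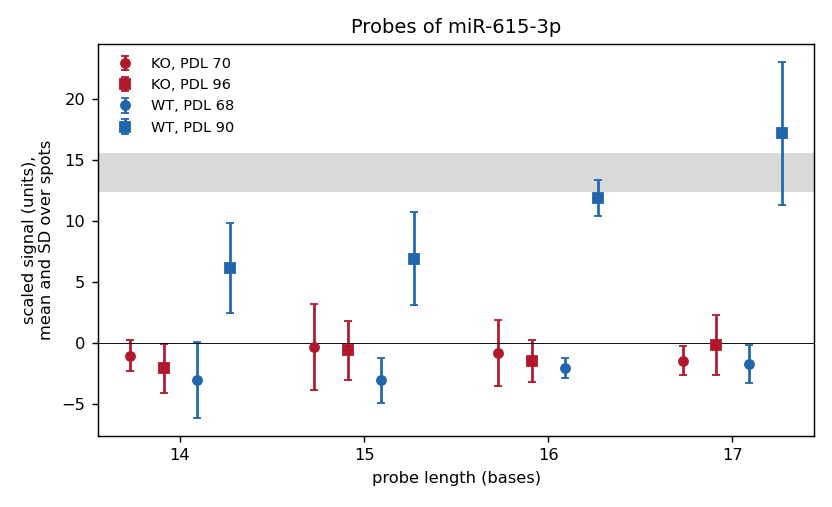
Scaled signal (units, linear axis; mean and SD over 5 spots) of the 4 probes of miR-615-3p by probe length, with KO arrays in red and WT arrays in blue. The grey band spans the array limits, 12.5 to 15.5 units. Only the WT array at PDL 90 rises above 0 units for every probe, up to 17.2 units.

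The opposite strands of the same hairpins gave no signal above background. The array holds miR-10a*, miR-10b* and miR-196a*, and all 3 were below the limits on all 4 arrays. The probes of miR-196a* map to chromosome 15 alone, so they report the Hoxc hairpin. The opposite strands of both miR-196a hairpins are shown because they, unlike the mature strand, tell the hairpins apart.
miR-196a-1-3p (Hoxb, not on the array): cAACGACAucaaaccaccugau
miR-196a-2-3p (Hoxc, miR-196a* on the array): uCGGCAACaagaaacugccuga

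The 4 probes of miR-196a* had -5.85 to -4.02 units on the KO arrays, against -6.43 to -2.86 units on the WT arrays. Opposite strands are usually degraded, and a signal under the limit does not assign miR-196a to Hoxb.

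The other members of the miR-10 sequence family, miR-99a, miR-99b and miR-100, lie outside the Hox clusters and have another seed. Of these 3, 1 was called higher in KO MEFs, 1 lower, and 1 did not pass. Over all 159 tested miRNAs, 43.4% were called higher and 14.5% lower. miR-99a had signals of 39.7 and 20.5 units in KO MEFs, against 8.46 and 7.91 units in WT MEFs, where it was not above background. It thus passed the filter through the KO arrays alone. The lower bound, which has no test, was 1.88-fold. The fitted log2 difference was 1.80 ± 0.38 (SE, n = 2 arrays each, limma, adjusted p = 0.0304). The other probe of miR-99a had 10.4 and 3.37 units in KO MEFs, against -2.10 and -3.72 units in WT MEFs, all under the limits. miR-100 had 167 and 171 units in KO MEFs, against 213 and 257 units in WT MEFs (log2 difference -0.47 ± 0.12, SE, n = 2 arrays each, limma, adjusted p = 0.0454). miR-99b had 199 and 200 units in KO MEFs, against 201 and 179 units in WT MEFs (adjusted p = 0.544). Neither call was firm. That of miR-99a was lost with quantile normalization (adjusted p = 0.238), median scaling (adjusted p = 0.0550), normexp correction (adjusted p = 0.110), signals raised to the array limits (adjusted p = 0.0664) and no filter (adjusted p = 0.230), and without the WT array at PDL 68 (adjusted p = 0.0769) or PDL 90 (adjusted p = 0.0540). That of miR-100 was lost with quantile normalization (adjusted p = 0.0765), no scaling (adjusted p = 0.109), the mean of all probes (adjusted p = 0.0648), no filter (adjusted p = 0.261) and PDL level as a block (adjusted p = 0.0663). It was also lost without the KO array at PDL 70 (adjusted p = 0.299) or PDL 96 (adjusted p = 0.227) and without the WT array at PDL 90 (adjusted p = 0.0963). With scaling to the median, miR-99b was called lower (log2 difference -0.33, adjusted p = 0.0402).

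The tested miRNAs with the pattern most like each bright member over the 4 arrays were sought by the root mean square difference of centred log2 signals, after raising signals to the array limits. For miR-10a these were miR-377 (0.0649), miR-329 (0.0773) and miR-31 (0.118). For miR-196a they were miR-183 (0.0535), miR-410 (0.0681) and miR-376c (0.144). miR-377, the nearest to miR-10a, had 87.7 and 82.3 units in KO MEFs, against -5.11 and -4.25 units in WT MEFs. miR-183, the nearest to miR-196a, was above background on all 4 arrays, with 105 and 104 units in KO MEFs, against 27.3 and 28.2 units in WT MEFs. Both bright members lay below the limits on the WT arrays, so the limits stand in for their WT signals and the ranking depends on them. With 2 arrays a group, such likeness describes these arrays only.

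The fibroblast label was checked against marker miRNAs. Of 7 fibroblast and mesenchyme markers, 6 were above background on every array, and of 4 muscle markers 1 was, miR-206. None of the 6 epithelial, 6 blood, 4 neural, 2 endothelial and 1 liver markers was above background on any array. Between 157 and 161 names were above background on the KO arrays, against 125 to 129 on the WT arrays.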

How the data were processed

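Total RNA of 4 MEF cultures was hybridised to Agilent mouse miRNA arrays, and the authors extracted the spots with Agilent Feature Extraction 10.5.1.1. The deposited files hold the intensity of each spot (processed signal, background-subtracted by that software) with its flags, on a linear scale, and the series' value table repeats the processed signals within 0.495%. All 4 arrays share 1 slide and 1 scan time, so no batch could be separated. No miRNA spot was saturated.

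Outlier spots (276 to 395 of 13000 per array) were left out and the remaining spots of a probe averaged. Each array was scaled to its 75th percentile over the 192 probes above background on all 4 arrays, and log2 was taken after raising signals under 1 unit to 1. The genotypes were compared by limma (version 3.58.1, R version 4.3.3), two-sided, with Benjamini-Hochberg adjustment over all tested miRNAs. PDL levels were compared in the same way with genotype in the model. The genotype fit was tested on simulated data with a single noise level for every miRNA and no floor. That test does not cover miRNAs with WT signals under the limits, such as miR-10a and miR-196a. The number of arrays limits the precision, and p-values measure no more than the spread between 2 passages of 1 clone per genotype. For miR-10a and miR-196a the WT signals lay below the limits. Their WT spread is therefore one of background signals and of the floor at 1 unit, not of measured levels.

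Lower bounds set the mean of the bright group against, on each dim array, the higher of the array limit and the miRNA's own signal. Named miRNAs were the 6 members, the opposite strands on the array, miR-99a, miR-99b and miR-100, tested miRNAs sharing a seed, and the 3 most alike per tested member. Members and lists were chosen with earlier results of these data known. Sequences come from RefSeq (GRCm38.p6) and the array files, and positions from the array files (mm9). Alternatives covered scaling, background correction, probe summary, floor, filter, PDL as a block, left-out arrays and the methods' t-test.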

Additional observations from a re-analysis of the deposited data

How the results depend on the processing

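Both bright members stayed higher in KO MEFs in every alternative that gave a value. Except with no filter, they had passed through the KO arrays alone, so this shared direction is no independent support. The fitted log2 difference of miR-10a fell short of the threshold with no filter (5.11) and in the methods' t-test (5.11), both at a 2-fold change with its unadjusted p of 0.0512 and after Benjamini-Hochberg adjustment (adjusted p = 0.0947). That of miR-196a did so with no filter (5.01) and in the methods' t-test after adjustment (5.01, adjusted p = 0.0708). Leaving out each array in turn gave 3.94 to 6.38 for miR-10a and 4.12 to 6.50 for miR-196a, and both calls were lost without either KO array and kept without either WT array, with the lone array assumed to vary like the other group. Each alternative has array limits of its own, so its lower bounds stand on another floor. On the WT arrays the limits were 78.3 and 83.9 units with normexp, where the bounds were 1.72-fold for miR-10a and 1.83-fold for miR-196a. They were 2.70 and 4.29 units with the mean of all probes, where the bounds were 16.4-fold and 18.9-fold, and 3.94 and 6.59 units with the total signal, where they were 13.5-fold and 15.5-fold. Under the other scalings the bounds were 3.01-fold to 6.02-fold for miR-10a and 3.02-fold to 4.61-fold for miR-196a. For miR-196a the bounds with normexp and quantile normalization are those of the probe of 22 bases, not of the representing probe.

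Of all tested miRNAs, 38 were called higher with median scaling, 43 with the total signal per miRNA, 42 with only miRNAs above background on all 4 arrays, and 32 and 42 in the methods' t-test before and after adjustment. Those called lower numbered 42 with quantile normalization, 36 with median scaling, 15 with no scaling and 10 with no filter. The methods' t-test called 7 lower under the first of its rules and 14 under the second. Leaving out 1 array gave 32 to 73 higher and 5 to 25 lower, the fewest being 34 and 5 without KO at PDL 70, and 32 and 6 without KO at PDL 96. The cause was not tested. No miRNA was called between PDLs in any alternative.

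Scaling to the 75th percentile over all probes was not run to a result, since that percentile was -0.104 units on the WT array at PDL 68 and cannot scale an array. Requiring signal above background on all 4 arrays left no member to test. The labels give no replicate numbers. With PDL level as a block, which pairs the lower PDLs of both clones and the higher PDLs of both although these differ (70 with 68, 96 with 90), both members were still called (adjusted p = 0.0432 for miR-10a and 0.0255 for miR-196a). Signal over background limits 4 of the 6 members, which passed on no array, although miR-615-3p reached 17.2 units on 1 WT array.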
